A study of Mus musculus with 2 samples.

Results

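The H2 genes form the major histocompatibility complex of the mouse, and 45 of the 48550 rows of an allele-specific nuclear RNA table carry their names. The rows were chosen by a name that starts with H2- and a place on chromosome 17, a rule that uses no measured value. They lay between H2-K2 and H2-M2, over chr17:33974659-37483552 (mm10), and each of the 45 had a gene of the same name and strand in the GENCODE M21 annotation. By their usual grouping, 32 of them are class I genes or pseudogenes. These are the classical genes H2-K1 and H2-D1, the pseudogene H2-K2, 8 rows of the Q region, 7 of the T region and 14 of the M region. The class II genes and pseudogenes account for 12 rows. The last row, H2-Ke6, shares the prefix but encodes a hydroxysteroid dehydrogenase.

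Class I molecules are heavy chains that pair with beta-2 microglobulin and carry peptides from the cell interior to its surface, where T cells and natural killer cells read them. Class II molecules are pairs of an alpha and a beta chain that present peptides taken up from outside, mainly on antigen-presenting cells. The complex is among the most polymorphic stretches of the mouse genome and arose by repeated duplication, so that many of its genes resemble each other closely. Embryonic stem (ES) cells are known for carrying little class I protein on their surface.

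RNA came from F121-6, a female hybrid ES line with a 129 and a cas (*Mus musculus castaneus*) copy of each autosome. The cells grew with serum and LIF, a cytokine that keeps them undifferentiated, on mitomycin-C-inactivated mouse embryonic fibroblasts. No treatment or second genotype was compared here, and the comparison is between the 129 and the cas allele inside each of 2 libraries of total nuclear RNA. Both libraries come from a single line, nothing in the labels says that they were separate cultures, and the strain of the fibroblasts is not given there. A p-value of the allele fit below therefore measures only the spread between these 2 libraries, which may be technical. That spread was pooled over genes of similar abundance, so a gene's own agreement between libraries does not enter its p-value. P-values of the exact tests below measure counting error alone. A difference of the alleles cannot be told apart from a difference particular to this line. In such bulk samples, fewer cells of a type and less RNA per cell cannot be told apart either.

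Library 1 held 28523744 reads that had been assigned to an allele, and library 2 held 31402765. The median tested gene had 383 and 461 reads, and gene totals of the 2 libraries differed by far more than sampling noise (chi-square over degrees of freedom 28.0), so they were kept as separate samples. Values are given as reads, recovered as whole numbers from the deposited RPKM (reads scaled by gene length and library size), or as the 129 share, the percentage of a gene's allele-assigned reads that came from 129. After scaling by trimmed means (TMM), a gene with no difference between alleles has a 129 share of 55.1% in library 1 and 56.2% in library 2. Ratios are log2(129/cas) after that scaling, with a pseudocount of 0.1 CPM (reads scaled to a common library size), which understates the ratios of genes with few reads. They were tested with limma across the 15509 genes with 20 or more allele-assigned reads per library. Calls were made where the p, adjusted by the Benjamini-Hochberg method, was under 0.05.

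The H2 rows together had 1799 reads in library 1 and 2176 in library 2, or 63.1 and 69.3 RPM (reads per 1e6 allele-assigned reads). Reads were found for 25 of the 45 rows, 13 rows reached the minimum for testing, and 20 rows were listed at 0 in every column. Among the 13 tested rows, 6 were called higher from 129 (H2-K1, H2-D1, H2-Q4, H2-Q6, H2-Q10 and H2-M6-ps) and 0 higher from cas. At an unadjusted p under 0.05 the counts were also 6 and 0, and an exact binomial test in each library gave 6 and 0 as well, with H2-M5 in place of H2-D1. The share called was 46.2%, against 43.9% of all tested genes, which is near the background. By direction, 46.2% were called higher from 129, against 21.9% of all tested genes, and 0 of 13 higher from cas, against 22.0%. The median log2(129/cas) of the 13 was 0.89, against -0.00 over all tested genes, and 11 of the 13 were above 0. Summed markers of fibroblasts, the kind of cell the line grew on, had a 129 share of 92.2% and 92.5% in the 2 libraries. Their part in the H2 result was not tested. The called rows differ widely in depth, as the plot of reads by allele shows.

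**Figure D1:**
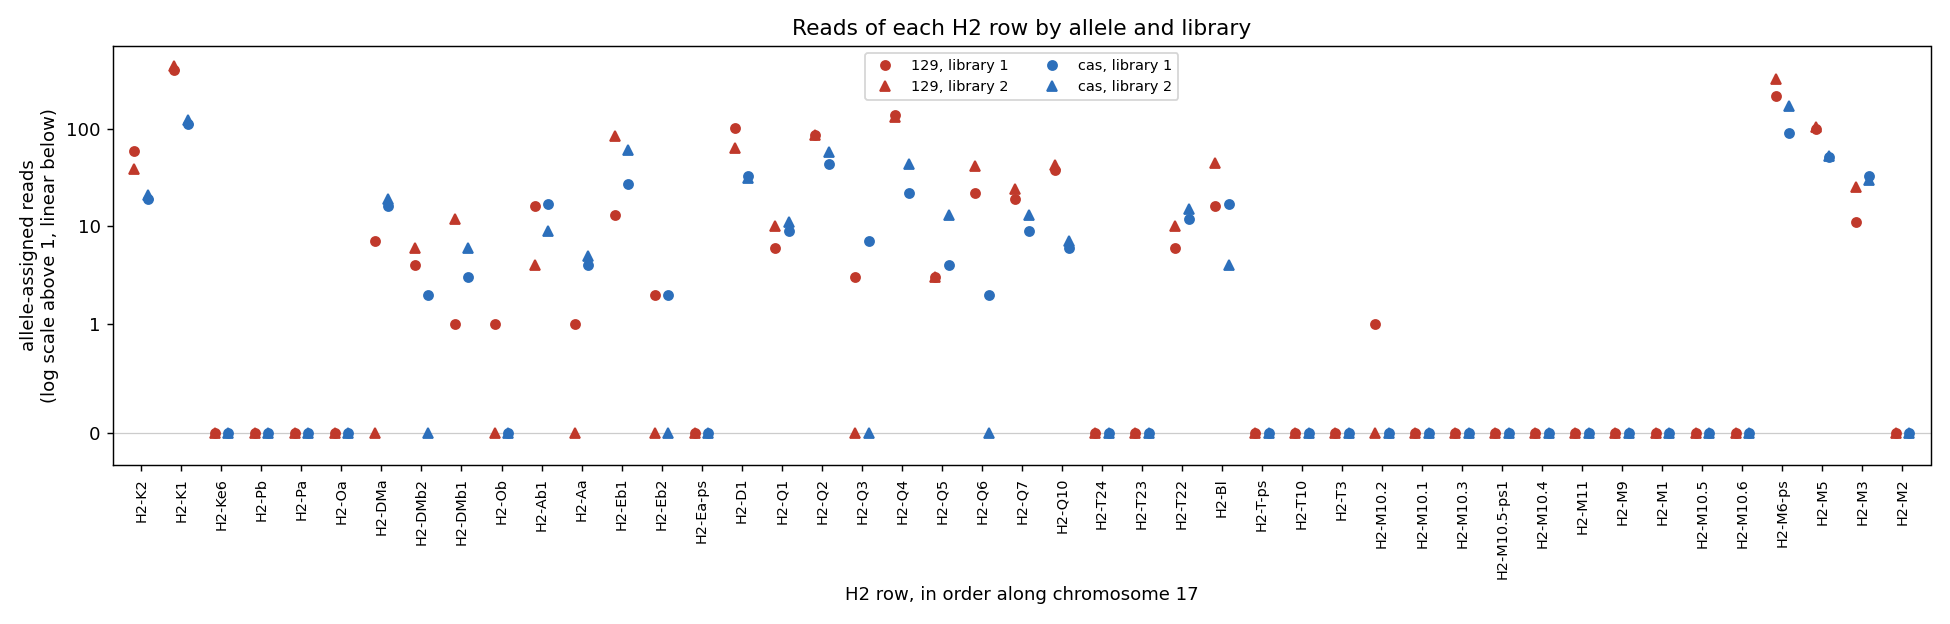
Allele-assigned reads of each H2 row, with the 45 rows in order along chromosome 17 on the x axis and reads on a log y axis that is linear below 1. Red symbols are 129 and blue symbols cas, circles library 1 and triangles library 2. H2-K1 and H2-M6-ps stand highest, most class II rows are low, and 20 rows lie at 0 in all 4 columns.

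Both classical class I genes, whose products present peptides to cytotoxic T cells, had more reads assigned to 129. Reads had been aligned to mm10, and whether reads of both alleles mapped equally well was not tested for any H2 row. H2-K1 (chr17:33996017-34000347, minus strand) had 393 and 437 reads on the 129 allele, against 112 and 121 on the cas allele, in libraries 1 and 2. Its 129 share was 78.1% ± 0.35 (SD, n = 2 libraries), and the 2 alleles did not come near each other in either library. The ratio was 1.49 (SE 0.20, adjusted p = 9.2e-13), a 2.81-fold difference. H2-K1 alone held 28.1% and 25.6% of all H2 reads of the 2 libraries. H2-D1 (chr17:35262730-35267499, plus strand) had 101 and 63 reads on the 129 allele, against 33 and 31 on the cas allele. Its 129 share was 71.2% ± 5.91 (SD, n = 2), above the even share in both libraries, with a ratio of 0.96 (SE 0.41, adjusted p = 0.046). That call lies close to the threshold and was lost without the filter on reads (adjusted p = 0.082), in a fit without the library as a block (0.128) and in an exact binomial test in each library (0.0557). Summed over both classical genes, 129 supplied 77.3% of 639 reads and 76.7% of 652 reads.

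H2-K2, a transcribed class I pseudogene next to H2-K1, had 59 and 39 reads on the 129 allele, against 19 and 21 on the cas allele. The 129 reads were the more numerous in both libraries, but the spread was wide, with a 129 share of 70.3% ± 7.52 (SD, n = 2), and the ratio of 0.89 (SE 0.52) was not called (adjusted p = 0.16). With 1 library size for both alleles it was called (0.0413).

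These genes are near copies of each other in their coding parts, and a read that covers no difference between them cannot be placed by its letters. A stretch of 130 coding bases, which lies in a single exon of each gene and encodes part of the immunoglobulin-like domain next to the membrane, shows how closely. It is given for 6 tested class I genes in the sense direction, 5′ to 3′, as the reference build mm10 has it, with capitals at bases that differ from H2-D1.
H2-K1 coding, chr17:33997330-33997459 (-): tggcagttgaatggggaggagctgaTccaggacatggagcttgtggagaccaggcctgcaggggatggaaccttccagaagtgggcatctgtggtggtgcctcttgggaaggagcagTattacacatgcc
H2-D1 coding, chr17:35265885-35266014 (+): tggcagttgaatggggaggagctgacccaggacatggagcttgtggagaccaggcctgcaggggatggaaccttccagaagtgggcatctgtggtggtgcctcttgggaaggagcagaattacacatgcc
H2-Q4 coding, chr17:35382959-35383088 (+): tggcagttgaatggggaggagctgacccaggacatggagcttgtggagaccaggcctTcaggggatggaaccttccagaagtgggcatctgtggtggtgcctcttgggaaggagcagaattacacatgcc
H2-Q6 coding, chr17:35427965-35428094 (+): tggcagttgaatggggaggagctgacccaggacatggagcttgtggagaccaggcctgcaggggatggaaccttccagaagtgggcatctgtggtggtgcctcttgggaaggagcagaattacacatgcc
H2-Q7 coding, chr17:35442368-35442497 (+): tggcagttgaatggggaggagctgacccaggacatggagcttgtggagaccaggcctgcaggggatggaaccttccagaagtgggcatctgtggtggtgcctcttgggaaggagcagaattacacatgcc
H2-Q10 coding, chr17:35473184-35473313 (+): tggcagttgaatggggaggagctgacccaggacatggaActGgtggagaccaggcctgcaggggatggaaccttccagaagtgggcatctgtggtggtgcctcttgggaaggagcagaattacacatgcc
H2-Q6 and H2-Q7 matched H2-D1 at all 130 bases, H2-Q4 differed at 1 base, and H2-K1 and H2-Q10 differed at 2 bases each. The longest coding run that H2-D1 shared with H2-Q1 was longer, at 184 bases, and holds the whole of this stretch. Reads were 100 bases at each end of a fragment, so an end that falls inside such a run has the same letters in several genes.

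The extent of such copies was measured over all annotated transcripts of each H2 row, as the percentage of their 100-base words that occur exactly in a transcript of a gene elsewhere. H2-Q5 had the highest percentage, 14.0%, followed by H2-Q6 with 13.0%, H2-Q7 with 12.0% and the class II pair H2-DMb1 and H2-DMb2 with 11.3% and 10.3%. H2-Q1, H2-Q10 and H2-T22 had between 8.01% and 8.86%, whereas H2-D1 had 3.59%, H2-Q4 had 2.27% and H2-K1 had 0.957%. In all, 17 of the 45 rows shared at least 1 such word, and 33 did with words of 50 bases. H2-M6-ps, H2-M5, H2-M3 and H2-Eb1 shared none at 100 bases. Of the called rows, H2-Q6 thus stands on one of the most copied sequences, whereas H2-K1 and H2-M6-ps have few or no exact copies of 100 bases among transcripts. With words of 50 bases the percentages were 35.0% for H2-Q6, 21.8% for H2-Q4, 19.1% for H2-Q10 and 12.8% for H2-D1. At that length H2-K1 had 9.63% and H2-M6-ps 0.10%, so only H2-M6-ps stayed nearly free of copies. Introns, from which nuclear RNA also yields reads, were not compared.

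**Figure D2:**
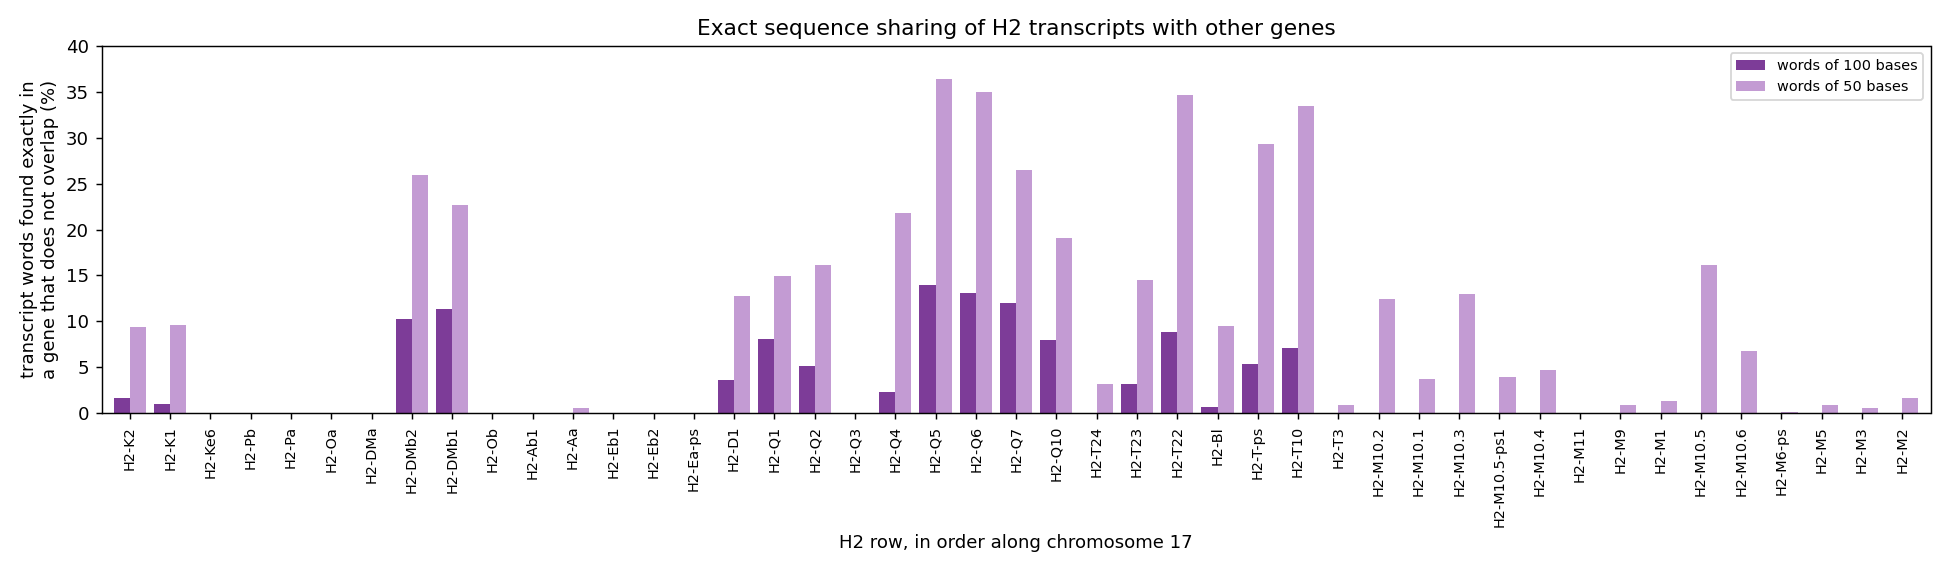
Percentage of the transcript words of each H2 row that occur exactly in a gene that does not overlap it, for words of 100 bases (dark) and 50 bases (light), with rows in order along chromosome 17 on the x axis. The Q region, H2-T22, H2-T10, H2-T-ps and the H2-DMb pair stand out, with H2-Q5 at 14.0% for 100 bases, and H2-M6-ps, H2-M5 and H2-M3 have none at that length.

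The Q region encodes nonclassical class I molecules. Its 8 rows all had reads, 5 were tested, and 3 of these were called higher from 129, against 21.9% of all tested genes. H2-Q4 (chr17:35379617-35385290) had 138 and 131 reads on the 129 allele, against 22 and 43 on the cas allele. Its 129 share was 80.8% ± 7.75 (SD, n = 2), and its ratio was 1.75 (SE 0.37, adjusted p = 9.8e-06). The 2 libraries lay apart, with ratios of 2.29 and 1.22, and an exact Fisher test of alleles by library gave an adjusted p of 0.057 for that difference. The antisense gene Gm11131 covers 11.9% of H2-Q4 and had 5 reads in all. The sources used here do not state the strand setting of the counting. Over the whole table, 97.6% of 5589 genes wholly inside others on the opposite strand alone were listed at 0. Whether reads from the Gm11131 overlap were counted for H2-Q4 was not tested.

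H2-Q10, known as a class I protein that the liver secretes, had 38 and 42 reads on the 129 allele, against 6 and 7 on the cas allele. Its 129 share was 86.0% ± 0.46 (SD, n = 2), and the ratio was 2.08 (SE 0.69, adjusted p = 0.0078). The exact binomial 95% intervals of the 2 libraries were far wider than that SD, at 72.6 to 94.8% and 72.8 to 94.1%. H2-Q6 and H2-Q7 both encode the Qa-2 antigen. H2-Q6 had 22 and 41 reads on the 129 allele, against 2 and 0 on the cas allele. Of its 65 reads over both libraries 96.9% came from 129 (exact binomial 95% interval 89.3 to 99.6%). As a linear fold of the pooled, scaled reads, 129 over cas was 25.0, with a counting interval of 6.65 to 211. The fitted log2 ratio was 3.56 (SE 1.00, adjusted p = 0.0014) and depends on the pseudocount, as it was 1.39 with 1 CPM, below H2-Q4 (1.44) and H2-K1 (1.40) at that setting. Its neighbour H2-Q7 had 19 and 24 reads on the 129 allele, against 9 and 13 on the cas allele, and was not called (ratio 0.59, SE 0.72, adjusted p = 0.53). The coding sequences of H2-Q6 and H2-Q7 were 95.4% identical, with a longest exact run of 265 bases, so that their reads are uncertain. H2-Q5, annotated as a polymorphic pseudogene, was 97.0% identical to H2-Q7 and had 3 and 3 reads on the 129 allele, against 4 and 13 on the cas allele.

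H2-Q2 had 85 and 85 reads on the 129 allele, against 43 and 58 on the cas allele, and its ratio of 0.43 (SE 0.37) was not called (adjusted p = 0.36). H2-Q1 had 6 and 10 reads on the 129 allele, against 9 and 11 on the cas allele, below the minimum for testing. The pseudogene H2-Q3 had reads in library 1 only, 3 from 129 and 7 from cas. Within this one region the 129 share thus ran between 26.1% of the 23 reads of H2-Q5 and 96.9% of the 65 reads of H2-Q6. Summed over the 8 rows, 129 supplied 75.5% of 416 reads in library 1 and 69.9% of 481 reads in library 2.

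**Figure D3:**
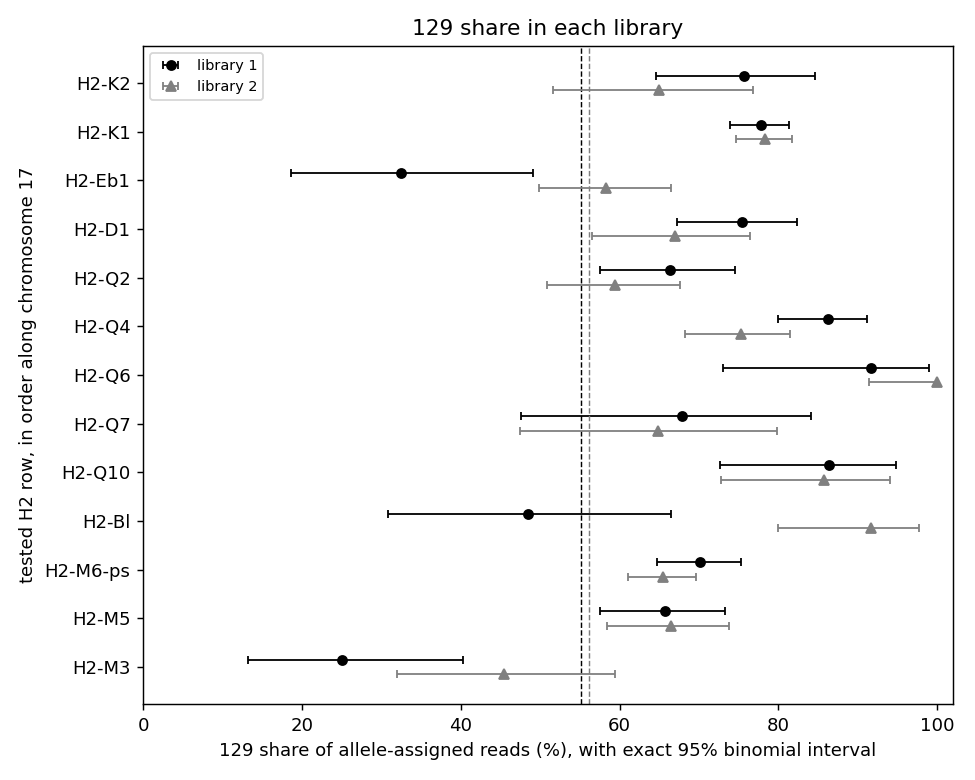
129 share of allele-assigned reads (x axis, %) of the 13 tested H2 rows, in order along chromosome 17 down the page, with exact 95% binomial intervals that cover counting error only. Circles are library 1 and triangles library 2, and the dashed lines mark the shares of a gene with no allelic difference, 55.1% and 56.2%. The shares of H2-K1 and H2-Q10 lie close in the 2 libraries, with wide intervals for H2-Q10, whereas those of H2-Eb1 and H2-Bl lie apart.

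The M region, at the far end of the complex, held the row with the most reads per length. H2-M6-ps (chr17:36969195-36971396), an unprocessed class I pseudogene, had 214 and 324 reads on the 129 allele, against 91 and 171 on the cas allele. Its 129 share was 67.8% ± 3.33 (SD, n = 2), and its ratio of 0.74 (SE 0.22) was called (adjusted p = 0.0025), though not in a fit without the library as a block (0.0906). Over both alleles and libraries it had 363 reads per kb of annotated span, above H2-K1 with 245 reads per kb. H2-Q2, H2-Q4 and H2-M5 followed, with 59.9, 58.9 and 55.5 reads per kb, and then H2-D1 with 47.8 reads per kb. The number of bases that distinguish the alleles in each gene is not known here, so these levels order the rows only roughly.

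H2-M5 had 98 and 103 reads on the 129 allele, against 51 and 52 on the cas allele. Its share of 66.1% ± 0.48 (SD, n = 2) was nearly the same in both libraries and above the even share in each. The ratio of 0.62 (SE 0.35) was not called by limma (adjusted p = 0.14). It was called with 1 library size for both alleles (0.0159) and by the exact binomial test in each library (0.0197). H2-M3, which presents peptides that begin with N-formylmethionine, as bacterial and mitochondrial peptides do, leaned the other way. It had 11 and 25 reads on the 129 allele, against 33 and 30 on the cas allele, with a ratio of -1.17 (SE 0.60, adjusted p = 0.10), and was the only one of the 13 tested rows with both cas values above both 129 values on the CPM scale. The opposite order, both 129 values above both cas values, was seen for 10 of the 13. Of all tested genes, 31.1% had the first order and 32.3% the second. The other M rows, among them the H2-M10 genes known from vomeronasal neurons, had 1 read in all, for H2-M10.2.

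Of the 7 T-region rows, 5 were listed at 0. H2-Bl, a class I gene first described in blastocysts and annotated as a polymorphic pseudogene, had 16 and 44 reads on the 129 allele, against 17 and 4 on the cas allele. The libraries disagreed in direction, with ratios of -0.36 and 2.72, and the exact Fisher test of that difference gave an adjusted p of 0.00044. Its mean ratio of 1.18 (SE 0.72) was not called (adjusted p = 0.18). H2-T22, a ligand of gamma-delta T cells, had 6 and 10 reads on the 129 allele, against 12 and 15 on the cas allele, or 37.2% of 43 reads from 129 (exact binomial 95% interval 23.0 to 53.3%). That count was below the minimum for testing. On the opposite strand, A930015D03Rik covers 23.3% of H2-T22 and had 573 reads in all. Whether reads from that overlap were counted for H2-T22 was not tested.

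Class II rows had few reads, as the 12 rows summed to 116 reads in library 1 and 205 in library 2. H2-Eb1, the beta chain of the I-E molecule, was the one class II row tested, with 13 and 84 reads on the 129 allele, against 27 and 60 on the cas allele. Its ratios of -1.26 and 0.12 in the 2 libraries differed beyond counting error (exact Fisher test, adjusted p = 0.026), and its mean ratio of -0.57 (SE 0.48) was not called (adjusted p = 0.36). The antisense gene Gm20513 covers 20.4% of it and had 4 reads. H2-Ab1 and H2-Aa encode the 2 chains of the I-A molecule. H2-Ab1 had 16 and 4 reads on the 129 allele, against 17 and 9 on the cas allele, and H2-Aa had 1 and 0 reads on the 129 allele, against 4 and 5 on the cas allele. H2-DMa, a chain of the H2-DM molecule that exchanges peptides on class II, had 7 and 0 reads on the 129 allele, against 16 and 19 on the cas allele. The 129 share of its 42 reads was 16.7% (exact binomial 95% interval 6.97 to 31.4%), and other annotated genes cover 26.7% of its span. Among these is Brd2, on the opposite strand, which had 6114 reads in all. Whether reads from the overlap were counted for H2-DMa was not tested. The near-identical beta chains of H2-DM had too few reads for a test, H2-DMb1 with 1 and 12 reads on the 129 allele, against 3 and 6 on the cas allele, and H2-DMb2 with 4 and 6 reads on the 129 allele, against 2 and 0 on the cas allele. H2-Eb2 had 4 reads and H2-Ob had 1, all in library 1. The coding sequences of H2-DMb1 and H2-DMb2 were 95.9% identical with a longest exact run of 221 bases. Summed over all class II rows, 129 supplied 38.8% of reads in library 1 and 51.7% in library 2, against 72.1% and 70.1% over all class I rows. H2-Eb1 alone held 40 of the 116 and 144 of the 205 class II reads. Class I was not uniform, with 43.1% and 74.0% from 129 in the T region, 64.9% and 64.1% in the M region, and 77.3% and 76.7% for the classical genes.

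Between the libraries, the 129 share differed for 2 of the 13 tested H2 rows (15.4%), H2-Eb1 and H2-Bl, by an exact Fisher test adjusted over all genes. The same test called 21.4% of all tested genes.

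Zeros followed the overlap with other annotated genes. All 6 H2 rows with at least 99% of their span inside other genes were listed at 0, and so was H2-T-ps with 80.0% covered. None of the 4 rows covered by less than 50% was at 0 (H2-DMa, H2-Eb1, H2-Q4 and H2-T22), and 13 of the 34 rows with no overlap were, among them H2-T3, which encodes the thymus leukaemia antigen. The covered rows are H2-Ke6 inside Gm20427, H2-T10 inside Gm7030, H2-Pa and H2-Oa inside BC051537, and H2-T23 and H2-T24 inside A930015D03Rik. H2-Ke6 and H2-T10 lie on the strand of the gene around them, and the other 4 on the opposite strand. H2-T23 encodes Qa-1, a ligand of receptors on natural killer cells, and H2-Oa a chain of H2-DO, which restrains H2-DM. Over the whole table, 97.4% of 10827 genes covered by at least 99% were listed at 0, against 42.7% of 23238 genes with no overlap. Of genes wholly inside others on the same strand alone, 98.3% of 5424 were at 0, and of those inside others on the opposite strand alone, 97.6% of 5589. B2m, the beta-2 microglobulin that all class I molecules pair with and that nearly every cell expresses, lies wholly inside Patl2 on the opposite strand and was also listed at 0. Sox2, a defining gene of ES cells, lies inside Sox2ot and was at 0 too. A 0 in such a row therefore gives no level of the gene.

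**Figure D4:**
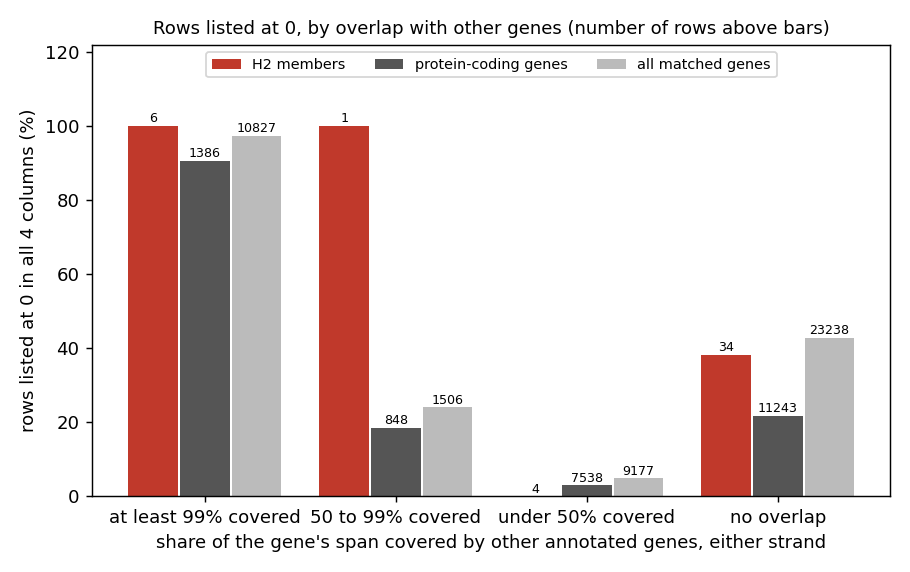
Percentage of rows listed at 0 in all 4 columns (y axis), by how much of the gene's annotated span other genes cover on either strand (x axis). Red bars are H2 rows, dark grey bars protein-coding genes and light grey bars all matched genes, with the number of rows above each bar. Rows covered by at least 99% were at 0 in 6 of 6 cases for H2 and in 97.4% of all genes.

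In the RefSeq promoter table (GRCm38.p6), 32 of the 45 H2 rows had an entry, and the 250 bases before each start were searched on both strands for 4 motifs whose letters were chosen with these promoters in view. A kappa B element (GGGATTCCC) occurred in 4 of the 32, namely H2-K1, H2-D1, H2-Q6 and H2-Q7, and in 0.311% of all 27025 promoters. An interferon response element (GTTTCACTT) occurred in 9 of the 32 and in 0.352% of all promoters. The core of a cyclic AMP response element (TGACG) occurred in 12 of the 32, against 17.9% of all promoters, and the Y box core (CCAAT) in 28 of the 32, against 34.5%. Below are these windows of 4 tested genes, in the direction of transcription, 5′ to 3′, with capitals at the 4 motifs on either strand. They show 2 genes called higher from 129 with the kappa B element, 1 called higher from 129 without it, and H2-M3, whose ratio was below 0. Of the genes not shown, H2-D1 and H2-Q7 hold the kappa B element, and H2-D1 was called but H2-Q7 was not. H2-Q4 lacks that element and was called. A link between motifs and allelic ratios was not tested.
H2-K1 upstream, chr17:34000348-34000597 (-): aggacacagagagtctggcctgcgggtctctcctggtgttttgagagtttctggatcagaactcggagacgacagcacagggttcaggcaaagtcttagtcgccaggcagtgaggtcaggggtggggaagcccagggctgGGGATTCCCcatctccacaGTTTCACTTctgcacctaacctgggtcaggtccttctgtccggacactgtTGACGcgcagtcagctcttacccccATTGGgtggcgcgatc
H2-Q6 upstream, chr17:35424600-35424849 (+): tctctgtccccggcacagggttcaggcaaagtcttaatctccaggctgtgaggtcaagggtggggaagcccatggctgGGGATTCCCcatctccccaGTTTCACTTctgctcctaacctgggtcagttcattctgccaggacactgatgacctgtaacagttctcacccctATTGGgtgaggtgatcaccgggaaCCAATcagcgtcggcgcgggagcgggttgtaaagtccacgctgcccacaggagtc
H2-Q10 upstream, chr17:35469839-35470088 (+): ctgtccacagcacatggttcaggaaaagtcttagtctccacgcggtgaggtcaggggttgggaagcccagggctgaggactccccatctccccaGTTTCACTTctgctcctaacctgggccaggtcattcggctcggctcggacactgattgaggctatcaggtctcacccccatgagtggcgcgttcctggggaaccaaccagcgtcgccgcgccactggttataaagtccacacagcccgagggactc
H2-M3 upstream, chr17:37269984-37270233 (+): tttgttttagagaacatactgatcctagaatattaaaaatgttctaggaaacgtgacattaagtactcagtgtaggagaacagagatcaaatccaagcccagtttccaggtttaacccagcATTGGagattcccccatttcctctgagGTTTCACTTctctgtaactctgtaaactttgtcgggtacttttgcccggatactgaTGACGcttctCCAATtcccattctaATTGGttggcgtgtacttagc
In H2-K1 the kappa B element starts 110 bases before the RefSeq start and the interferon response element 91 bases before it. H2-Q10 holds the interferon response element alone of the 4 motifs, and H2-M3 holds all but the kappa B element. No motif in these 4 windows overlaps another. Where the upstream windows of H2-Q6 and H2-Q7 could be aligned, over 210 bases, they were 97.6% identical, and those of H2-K1 and H2-D1 were 89.5% identical over 190 aligned bases. The alignments have 80 and 120 gap positions. These are letters of the reference build, and the sequences of the cas alleles were not used here.

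Rows that are not H2 genes share the same stretch of the chromosome, and 57 of the 275 such rows were tested. Of these 12 were called higher from 129 and 5 higher from cas, and 29.8% were called in all, against 43.9% of all tested genes. Their median ratio was 0.17. The rows next to one another could differ in direction, as the plot of ratios along the complex shows. Near the end of the complex, 2410137M14Rik lies between H2-M6-ps and H2-M5. It had 148 and 190 reads on the 129 allele, against 51 and 69 on the cas allele, with a ratio of 1.15 (SE 0.30, adjusted p = 0.00041). Zfp57, a zinc finger gene needed to keep genomic imprints, lies on the other side of H2-M5 and was named for that place after its values were seen, with a ratio of 0.60 (SE 0.19, adjusted p = 0.0043). All 4 tested rows from H2-M6-ps to Zfp57 thus had ratios above 0. The next tested row before them, Znrd1as, was at -0.62 (SE 0.38, adjusted p = 0.18) and was not called. The next tested row after them, Gabbr1, was at -0.20 (SE 0.08) and was called higher from cas (adjusted p = 0.026). Gabbr1 had 1618 and 2219 reads on the 129 allele, against 1491 and 2026 on the cas allele. Its 129 shares of 52.0% and 52.3% lay below the even shares of 55.1% and 56.2%, so its direction rests on the scaling. A930015D03Rik, which encloses H2-T23 and H2-T24, had 130 and 268 reads on the 129 allele, against 68 and 107 on the cas allele, with a ratio of 0.79 (SE 0.26, adjusted p = 0.0079). Clic1, a chloride channel gene, also had more from 129 (0.74, SE 0.29, adjusted p = 0.027). Among those higher from cas were Trim39, a ubiquitin ligase gene (-1.12, SE 0.34, adjusted p = 0.0031), the sialidase gene Neu1 (-0.85, SE 0.31, adjusted p = 0.018) and Ehmt2, which encodes a histone H3 methyltransferase (-0.64, SE 0.17, adjusted p = 0.00066).

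**Figure D5:**
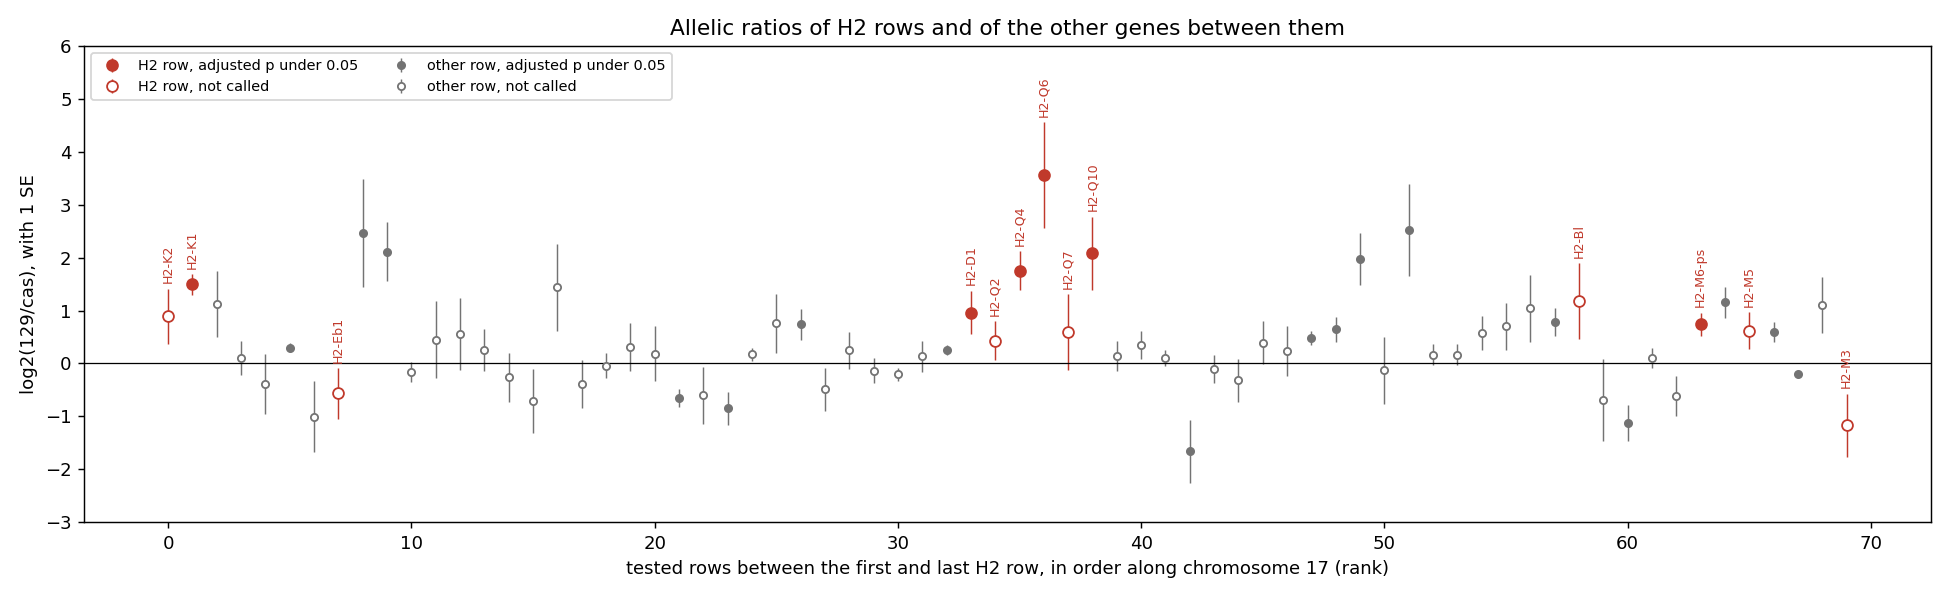
log2(129/cas) with 1 SE (y axis) of the 70 tested rows between the first and the last H2 row, in order along chromosome 17 (x axis, rank and not distance). Red points are H2 rows and grey points other genes, filled where the adjusted p was under 0.05. The 6 filled red points all lie above 0, and filled grey points lie on both sides of 0.

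Other genes of MHC loading and regulation, and class I-like genes outside the complex, were compared as a list of 37 genes without an H2 name, of which Tap1, Psmb9 and some others lie between H2 rows. Of these 32 had reads and 25 were tested, with 6 called higher from 129 and 1 higher from cas. The share called was 28.0%, against 43.9% of all tested genes, and the median ratio was -0.02. The 4 with the most reads were not called. They are the chaperones Canx (-0.09, SE 0.06, adjusted p = 0.25) and Calr (-0.02, SE 0.11, adjusted p = 0.92), Nfyc, a subunit of the factor that binds the Y box (-0.02, SE 0.07, adjusted p = 0.84), and the CRE-binding factor Creb1 (-0.04, SE 0.10, adjusted p = 0.76). Both chains of the interferon gamma receptor were called higher from 129, Ifngr2 (1.52, SE 0.37, adjusted p = 0.00014) and Ifngr1 (1.15, SE 0.33, adjusted p = 0.0020). So were Cd1d1, a class I-like gene that presents lipids (1.64, SE 0.69, adjusted p = 0.039), Nfyb, another subunit of the Y box factor (0.96, SE 0.18, adjusted p = 3.0e-07), tapasin (Tapbp; 0.66, SE 0.28, adjusted p = 0.042) and Irf2 (0.43, SE 0.13, adjusted p = 0.0037). Nlrc5, the activator of class I genes, had 115 and 86 reads on the 129 allele, against 86 and 77 on the cas allele, and was not called (-0.04, SE 0.31, adjusted p = 0.94). Besides B2m, the genes Psmb8, Psmb10, Tapbpl and Azgp1 were listed at 0.

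Markers of other cell types were counted in the same way. Of 21 fibroblast markers 18 had reads, and Lum, S100a4 and Twist1 were at 0. Their summed level, per 1e6 reads of the same allele and library, was 665 and 836 from 129, against 65.4 and 79.7 from cas, a 129 share of 92.2% and 92.5%. Of the 16 tested, 13 were called higher from 129, against 21.9% of all tested genes, and 0 higher from cas, against 22.0%, with a median ratio of 3.52. The 3 not called were Thy1, Loxl1 and Pdgfrb, with mean 129 shares between 59.1% and 66.9%. Cd44 alone held 5194 and 7474 of the 10181 and 14223 fibroblast-marker reads from 129 in libraries 1 and 2. The 10 ES cell markers had 9 with reads, and summed on that scale to 2407 and 2317 from 129 and 2463 and 2415 from cas, a 129 share of 53.1% in both libraries. Of the 9 tested ES cell markers 1 was called higher from 129 (Dppa5a) and 3 higher from cas (Klf4, Nanog and Zfp42), or 44.4% in all against 43.9% of all tested genes. The mean 129 shares of the 3 called from cas ran from 49.2% for Klf4 to 49.7% for Nanog, below the even shares but near equal reads. The 8 markers of blood and antigen-presenting cells all had reads but reached only 7.91 and 8.29 from 129 and 5.97 and 5.07 from cas, with 0 of the 2 tested called. The 3 endothelial markers, nearly all of it Tek, had a 129 share of 81.6% and 83.8%. The 13 tested H2 rows had mean 129 shares between 35.2% for H2-M3 and 95.8% for H2-Q6. Among the 6 called rows, which were all called higher from 129, the lowest was 67.8% for H2-M6-ps.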

How the data were processed

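Total nuclear RNA of 2 libraries was sequenced as 100 bp paired ends from strand-specific libraries, with earlier reads merged in, per the labels' protocols. Alignment used Bowtie2 and mm10, per the submitters' processing notes. The sources used here do not name the counting program, the SNPs that distinguished the alleles, the annotation or the strand setting. How these choices act on each H2 row was not tested.

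The deposited values are RPKM made by the authors (the column names, per the file headers, say counts). Value times length, divided by a step fixed for each column, came out whole for 100.0% of values (tolerance 0.01 read), and these whole numbers served as reads. The deposited lengths matched the annotated span within 2 bp for 0 of the 45 H2 rows, so RPKM was not compared between genes. A 129 to cas ratio of 1 gene does not depend on them.

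The design assumed that count models could serve as alternatives. These models were not run, because the deposited unit is RPKM, though the recovered reads could have entered them. The test was limma 3.58.1 (R 4.3.3) on log2(CPM + 0.1) of the recovered reads, with TMM scaling and trended variances. The library was a block, because a library's 129 and cas columns stem from a single RNA sample. Both libraries entered every fit. Tested genes had 20 or more allele reads per library, and 1570 Y-linked rows were omitted. Of all rows, 95.4% were matched to GENCODE M21. The prior degrees of freedom of limma were infinite, so the spread was pooled over genes of similar abundance. The fit of 129 against cas was tested on simulated data for 15277 genes, where it found 75.0% of 64 genes set to differ 1.5-fold, 91.0% of 67 set to 2-fold and 98.5% of 66 set to 4-fold, and made 6 false calls among 180. The simulated spread was small and fixed in advance, and no gene was given an allelic share that changed between libraries. In the data, the Fisher test called 21.4% of tested genes for such a change, so these rates come from a quieter setting. Shares have exact (Clopper-Pearson) 95% intervals, and the 129 share was compared between libraries by a two-sided Fisher exact test. Intervals cover counting error only, as the reads carry no molecular identifiers. Words, coding runs and identities (over aligned bases, gaps left out) were computed on GENCODE M21 transcripts with Python 3.11.15 and Biopython 1.88.

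The H2 members, the gene lists and the motifs were chosen with earlier results of these data known. Every H2 row with at least 20 allele reads in each library is named with its reads, and rows with fewer reads are named where each library had at least 1. H2-Q3, H2-Eb2, H2-Ob, H2-M10.2 and rows at 0 are named beyond this rule, after their values were seen. Named outside the H2 rows are the 4 list genes with most reads, up to 6 further called ones of largest ratio, and up to 3 called neighbours in each direction with at least 100 reads in each library. Irf2, Nlrc5, Zfp57, Znrd1as and Gabbr1 were added after their values were seen. The values of 1 gene that this rule names are not reported here. Alternatives were other scalings, pseudocounts of 0.5 and 1 CPM, other read minimums, no block, 1 library at a time, an exact binomial test and words of 50 bases.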

Additional observations from a re-analysis of the deposited data

How the results depend on the processing

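The alternatives left the direction of all 13 tested H2 rows as it was wherever both libraries were used. The fit without a block and the exact binomial test carry the ratio of the main fit, so they could not change a direction. With 1 library at a time, which allows no test, H2-Eb1 was at 0.15 without library 1 and -1.25 without library 2, and H2-Bl at 2.75 and -0.35. When both alleles of a library shared 1 library size, the median over all genes was 0.32, the H2 median was 1.21 and H2 calls from 129 numbered 8 (H2-K2 and H2-M5 added). Calls from 129 and cas then numbered 6505 and 1492 over all genes (81.3% from 129, against 61.9% with the deposited column totals and 50.0% as reported), 22 and 2 among the neighbours, and 12 and 0 in the antigen processing list. The library pairs the allele columns by design. Without that replicate block, 4 of the 6 H2 calls remained, H2-D1 and H2-M6-ps being lost, and calls numbered 2150 and 1804 over all genes, 2 and 3 among the neighbours, and 0 from cas in the list. The H2 median was 0.64 with a pseudocount of 1 CPM, 0.36 with no filter beyond 1 read, and between 0.64 and 0.93 with 1 library at a time. A minimum of 100 reads left 5 H2 rows tested and 3 called from 129. With no filter beyond 1 read, H2-D1 was lost and H2-DMa was called higher from cas, the 1 such H2 call. The exact binomial test was added after the data were seen. The number of H2 rows that share a transcript word was 33 with 50 bases. The 2 planned count models were not run, because the deposited unit is RPKM. Depth limits the rows under 20 reads, H2-Q6, with 2 cas reads in all, and H2-Q10, with 13.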
